A study of Mus musculus with 8 samples.

Results

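The set comprised 10 genes that run the G1 phase of the cell cycle, chosen by name from the 55385 genes measured: the cyclin genes Ccnd1, Ccnd2, Ccnd3, Ccne1 and Ccne2, the kinase genes Cdk2, Cdk4 and Cdk6, and the inhibitor genes Cdkn1b and Cdkn2c. No measured value was used as a rule for the choice, but earlier results of these data were known when it was made. Each symbol matched exactly 1 gene identifier, and all 10 were among the 16413 genes tested. RNA came from neural stem and progenitor cells (NSPCs) isolated by fluorescence-activated sorting of dissociated mouse cortex at postnatal day 7. The iKO group (4 libraries) carried Nestin-CreERT2, homozygous floxed Ash2l (Ash2l f/f) and a tdTomato reporter, and the WT group (4 libraries) carried Nestin-CreERT2 and tdTomato but no floxed allele, so Cre and reporter were present in both. CreERT2 is a Cre recombinase that acts when tamoxifen is given, and the Nestin promoter drives it in neural progenitors and some other cells; the schedule of induction is not given in the sources used here. ASH2L is shared by the KMT2 and SETD1 enzyme complexes, which place methyl groups on lysine 4 of histone H3. The design text calls the libraries biological replicates without saying how many animals each came from, so the spread behind the p-values is that between libraries and may be technical.

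Cells commit to division in G1. Mitogens raise the D-type cyclins, which bind the kinases CDK4 and CDK6; these phosphorylate the retinoblastoma protein RB and its relatives, which then release E2F transcription factors. E2F induces the E-type cyclins, which bind CDK2 and drive entry into S phase. INK4 inhibitors, such as p18 encoded by Cdkn2c, block CDK4 and CDK6, and CIP/KIP inhibitors, such as p27 encoded by Cdkn1b, block cyclin E with CDK2. In the developing cortex the length of G1 is linked to whether a progenitor divides again or forms neurons, and cyclin D2 is the D-type cyclin best known for its part in postnatal neurogenesis.

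The 3 kinase genes split in direction, with Cdk4 and Cdk6 higher and Cdk2 lower in iKO, and the sequences before their transcription start sites are shown for that reason. The fall of Cdk2 did not pass the test threshold under some other scalings or in the authors' deposited table, as given below. RefSeq windows (GRCm38.p6, 250 bases before to 50 after the start) were held for 7 of the 10 genes, in 9 windows, and none was held for Ccnd1, Ccnd2 or Ccne2. Sequences run 5′ to 3′ on the strand of the gene. Capitals mark the E-box CACGTG, the GC box GGGCGG or its reverse complement CCGCCC, and the E2F motif (TTTCCCGC, TTTCGCGC, TTTGCCGC or TTTGGCGC, either strand).
Cdk4 chr10:127063285-127063584 (+ strand): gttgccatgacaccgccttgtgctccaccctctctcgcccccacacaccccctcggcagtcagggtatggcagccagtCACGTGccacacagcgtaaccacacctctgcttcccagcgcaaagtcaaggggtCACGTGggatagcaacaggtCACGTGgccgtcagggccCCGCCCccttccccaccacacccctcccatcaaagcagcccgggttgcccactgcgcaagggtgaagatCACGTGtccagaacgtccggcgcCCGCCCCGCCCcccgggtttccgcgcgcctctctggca
Cdk6 chr5:3343643-3343942 (+ strand): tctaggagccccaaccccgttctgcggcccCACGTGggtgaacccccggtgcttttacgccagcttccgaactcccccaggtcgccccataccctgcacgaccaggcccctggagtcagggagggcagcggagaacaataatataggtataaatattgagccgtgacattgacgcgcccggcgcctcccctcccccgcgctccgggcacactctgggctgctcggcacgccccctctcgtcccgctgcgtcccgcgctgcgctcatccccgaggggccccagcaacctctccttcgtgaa
Cdk2 chr10:128705002-128705301 (- strand): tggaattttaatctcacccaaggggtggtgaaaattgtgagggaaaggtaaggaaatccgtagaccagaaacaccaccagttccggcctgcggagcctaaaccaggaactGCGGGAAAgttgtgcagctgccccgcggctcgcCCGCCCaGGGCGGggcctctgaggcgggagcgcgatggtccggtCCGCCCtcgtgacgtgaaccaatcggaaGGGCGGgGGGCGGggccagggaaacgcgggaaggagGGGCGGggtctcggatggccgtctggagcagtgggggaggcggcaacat

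The Cdk4 window held 4 E-boxes, the motif that MYC and related factors bind, which began at positions -172, -118, -98 and -11 from the start site. At least 1 E-box was in 7.15% of all 32851 windows of this length, and 4 or more in 8 windows (0.0244%). The Cdk4 window also held 3 GC boxes, motifs of SP1-type factors, of which the pair after the start overlapped by a base. The Cdk6 window held 1 E-box at -220 and no GC box. The Cdk2 window held no E-box, but 6 GC boxes and 1 E2F match at -140; 35.7% of all windows held a GC box, 1.35% held 6 or more, and 2.26% held an E2F match. No E2F match was found in the other 8 windows, and the CHR motif TTTGAA, present in 17.9% of all windows, was found in none of the 9. A window of Cdkn2c, which did not pass, also held an E-box, at position 35, and that of Cdkn1b, higher in iKO, held none. These matches describe letters and were not tested for binding or for a link to the direction of change.

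Values were deposited as TPM, which corrects for transcript length and library total, so levels can be compared between genes. TPM keeps no read depth, and the depth of each library is unknown. The comparison of iKO with WT asked how these genes differ when Ash2l is deleted. It was made with limma on log2(TPM + 1), with Benjamini-Hochberg adjustment over all 16413 genes and a threshold of 0.05. Ash2l itself was lower in all 4 iKO libraries (6.11 to 7.69 TPM, against 16.1 to 19.2 TPM in WT). Of all genes tested, 52.6% passed, 20.7% higher and 31.9% lower in iKO, and the groups did not overlap in 49.2%. Of the 10 G1 genes, 7 passed, 3 higher (Cdk4, Cdk6 and Cdkn1b) and 4 lower (Ccnd1, Ccnd2, Ccne2 and Cdk2), and the groups did not overlap in 6, with iKO higher in 2 (against 19.2% of all genes) and lower in 4 (against 29.9%). With trimmed mean factors in place of the deposited scaling, 51.1% of the genes that passed were higher, against 39.3% as deposited, and the 10 genes split into 4 higher and 3 lower; 51.8% of all genes passed on that scale. The median log2 fold change was 0.03 for the 10 genes and -0.06 for all genes tested. All 10 fold changes were under 0.5 in size, as were those of 68.2% of all genes that passed.

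The libraries also differed between groups in marker transcripts of other cell types. For comparison with the counts below, 20.7% of all genes tested were higher and 31.9% lower. All 9 endothelial markers were higher in iKO, with summed levels of 859 to 903 TPM against 489.8 to 515 TPM in WT. All 5 blood markers were higher (719.7 to 839.6 TPM against 69.7 to 80.9 TPM). Astrocyte markers were lower in 8 of 9 cases (5654 to 5870 TPM against 8293 to 8596 TPM), and microglia markers in 7 of 8 (552 to 570.2 TPM against 684 to 733 TPM). Of 7 neuroblast markers, 5 were higher and 2 lower (1823 to 1878 TPM against 1774 to 1812 TPM). Pericyte markers split 3 higher and 2 lower of 5 (941 to 991 TPM against 799 to 849 TPM). Oligodendrocyte precursor markers split 1 higher and 4 lower of 6, with overlapping sums (1642 to 1714 TPM against 1681 to 1704 TPM). Markers of NSPCs and radial glia, the cells that were sorted, were all expressed, 2 of 11 higher and 4 lower. Their summed level was lower in iKO without overlap (3288 to 3373 TPM against 3879 to 3960 TPM). Slc1a3 weighed most in that sum, at a mean of 1241 TPM in iKO and 2039 TPM in WT, while Fabp7 was higher (925 TPM against 664 TPM). The authors' deposited table had 5 of the 11 higher and 4 lower, against 27.8% and 26.1% of all genes tested. None of the markers checked was listed at 0 throughout. Transcripts of the 4 genes on the Y chromosome were lower (iKO 53.9 to 73.4 TPM against 135 to 163 TPM in WT). G1 genes are transcribed in dividing cells of many types, and the part of these differences in the G1 results was not tested. In such bulk samples, fewer cells of a type and less RNA per cell cannot be told apart.

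The D-type cyclins were dominated by Ccnd2 in both groups, and Ccnd1 and Ccnd2 were lower in iKO while Ccnd3 did not pass. Ccnd2 (ENSMUSG00000000184.12) stood at 1958, 1978, 1972 and 1894 TPM in iKO replicates 1 to 4, and at 2171, 2205, 2223 and 2207 TPM in WT replicates 1 to 4. The groups did not overlap, and the gene ranked 34 of 55385 by mean TPM in iKO and 35 in WT. Its mean was 11.4% lower in iKO (1950 ± 38.3 TPM against 2201 ± 21.9 TPM, SD, n = 4), or -0.17 on the log2 scale (SE 0.015, limma adjusted p = 1.82e-05). The authors' deposited table also had Ccnd2 lower, at a log2 fold change of -0.27 (adjusted p = 1.24e-72). Under quantile normalization, which fixes the most abundant ranks to common values, the fold change of Ccnd2 was -0.01 and did not pass (adjusted p = 0.562).

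Ccnd1 (ENSMUSG00000070348.5), the D-type cyclin gene most closely tied to mitogen signalling, stood at 110.4, 117, 111 and 110.6 TPM in iKO and at 137, 136, 124 and 137 TPM in WT, in replicate order. The lowest WT library, replicate 3, was still above the highest iKO library, replicate 2. The mean was 15.8% lower in iKO (112 ± 3.37 TPM against 133 ± 6.63 TPM, SD, n = 4), or -0.25 on the log2 scale (SE 0.0393, limma adjusted p = 0.00078). The authors' deposited table did not have this difference: there the log2 fold change of Ccnd1 was 0.01 (the table's own SE 0.0225 and adjusted p = 0.696) at a mean normalized signal of 3629. Whether Ccnd1 was lower in iKO thus depended on which deposited file was read. On the opposite strand, exons of LTO1 covered 23.4% of the exon bases of Ccnd1 in GENCODE M21, the largest such overlap in the set, and LTO1 had mean TPM of 28.2 (iKO) and 25.2 (WT). Counting by strand or without it is not stated in any source used here.

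Ccnd3 (ENSMUSG00000034165.16) stood at 239, 247, 239 and 241 TPM in iKO and at 239, 248, 248 and 239.5 TPM in WT. The groups overlapped almost completely. Its log2 fold change was -0.01 (95% interval -0.06 to 0.03, adjusted p = 0.595). The sign of Ccnd3 turned with the scaling: it was 0.06 with trimmed mean factors (adjusted p = 0.0304) and 0.10 with a length and GC trend removed (adjusted p = 0.00334), both of which passed, while the authors' deposited table gave -0.05 (adjusted p = 0.153).

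**Figure D1:**
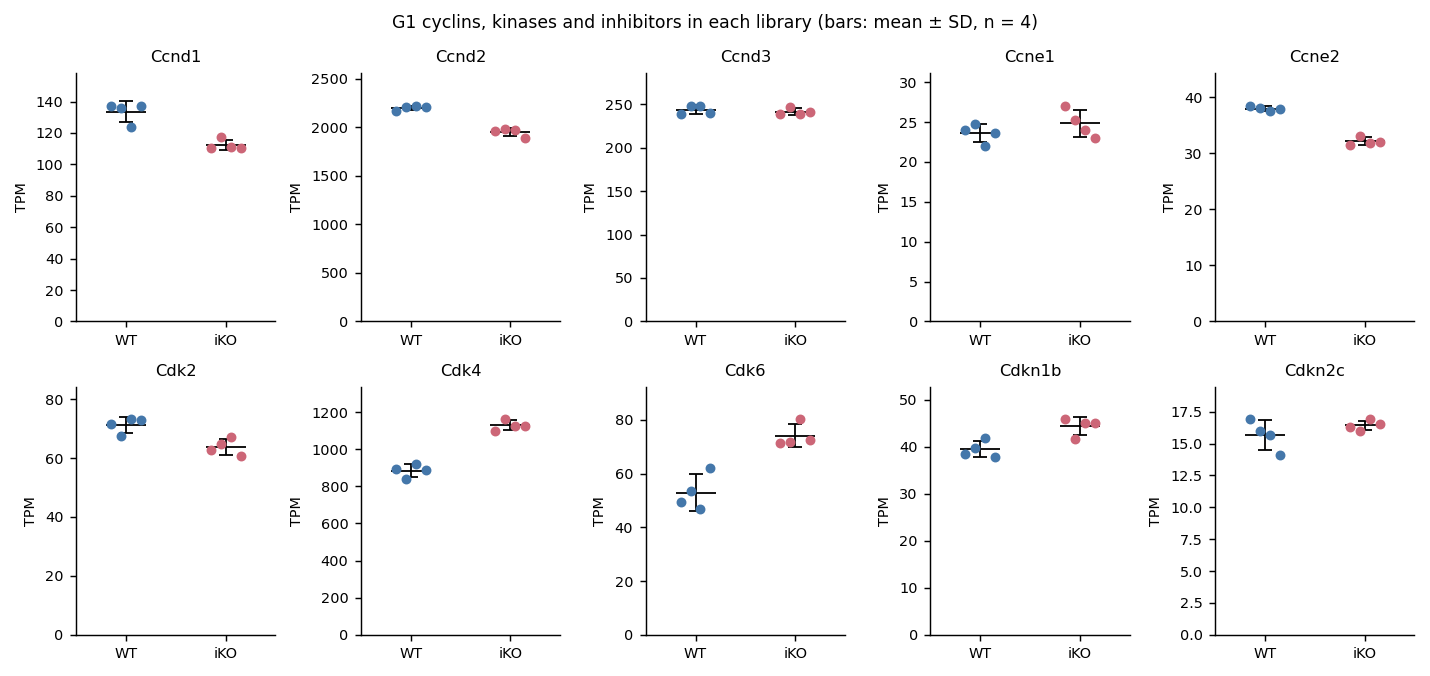
TPM of each of the 10 genes (vertical axes, linear, from 0) in the 4 WT and 4 iKO libraries, with the group mean and SD. The groups separate for Ccnd1, Ccnd2, Ccne2, Cdk2, Cdk4 and Cdk6 and overlap for Ccnd3, Ccne1, Cdkn1b and Cdkn2c.

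The makeup of the D-type pool differed by about a percentage point or less. Ccnd2 held 84.3% to 84.9% of the summed TPM of the 3 genes in iKO libraries and 85.2% to 85.7% in WT. The share of Ccnd3 was 10.3% to 10.7% in iKO and 9.27% to 9.59% in WT, and the share of Ccnd1 was 4.78% to 5.01% in iKO and 4.76% to 5.39% in WT, where WT replicate 3 was the lowest of all 8. The ranges of the Ccnd2 and Ccnd3 shares did not overlap between groups, and those of the Ccnd1 share did. The summed level of the 3 genes was 2304 ± 41.2 TPM across iKO libraries and 2579 ± 21.3 TPM across WT libraries (SD, n = 4).

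The partners of the D-type cyclins went the other way. Cdk4 (ENSMUSG00000006728.12), the kinase gene second in level to Ccnd2 within the set, stood at 1098, 1164, 1125 and 1126 TPM in iKO and at 893, 839, 921 and 889 TPM in WT. Every iKO library was above every WT library by a wide gap. The mean was 27.4% higher (1128 ± 26.9 TPM against 886 ± 34.2 TPM, SD, n = 4), or 0.35 on the log2 scale (SE 0.0287, limma adjusted p = 1.37e-05). The authors' deposited table gave Cdk4 a log2 fold change of 0.36 (adjusted p = 6.83e-77). Exons of Tspan31 on the opposite strand covered 19.7% of the exon bases of Cdk4, and Tspan31 had mean TPM of 228 (iKO) and 241 (WT).

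Cdk6 (ENSMUSG00000040274.11), which encodes the other kinase of the D-type cyclins, stood at 71.6, 71.8, 80.4 and 72.7 TPM in iKO and at 49.3, 53.6, 46.7 and 62.2 TPM in WT. The WT libraries were more spread than the iKO libraries, and WT replicate 4 was the nearest to iKO. The mean was 40.0% higher in iKO (74.1 ± 4.22 TPM against 53 ± 6.78 TPM, SD, n = 4), or 0.48 on the log2 scale (SE 0.0835, limma adjusted p = 0.00122), the largest in the set. The authors' deposited table gave 0.36 for Cdk6 (adjusted p = 2.12e-57). Cdk6 was 5.81% to 6.67% of the summed TPM of Cdk4 and Cdk6 in iKO and 4.83% to 6.54% in WT, so its share overlapped between groups.

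Set against each other, the D-type cyclins summed to 1.87 to 1.97 TPM per TPM of Cdk4 plus Cdk6 in iKO libraries and 2.68 to 2.90 in WT libraries. The highest ratio was that of WT replicate 2, which had the lowest Cdk4 level. Such a ratio is independent of how a library is scaled to its total, since both sums come from the same library.

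**Figure D2:**
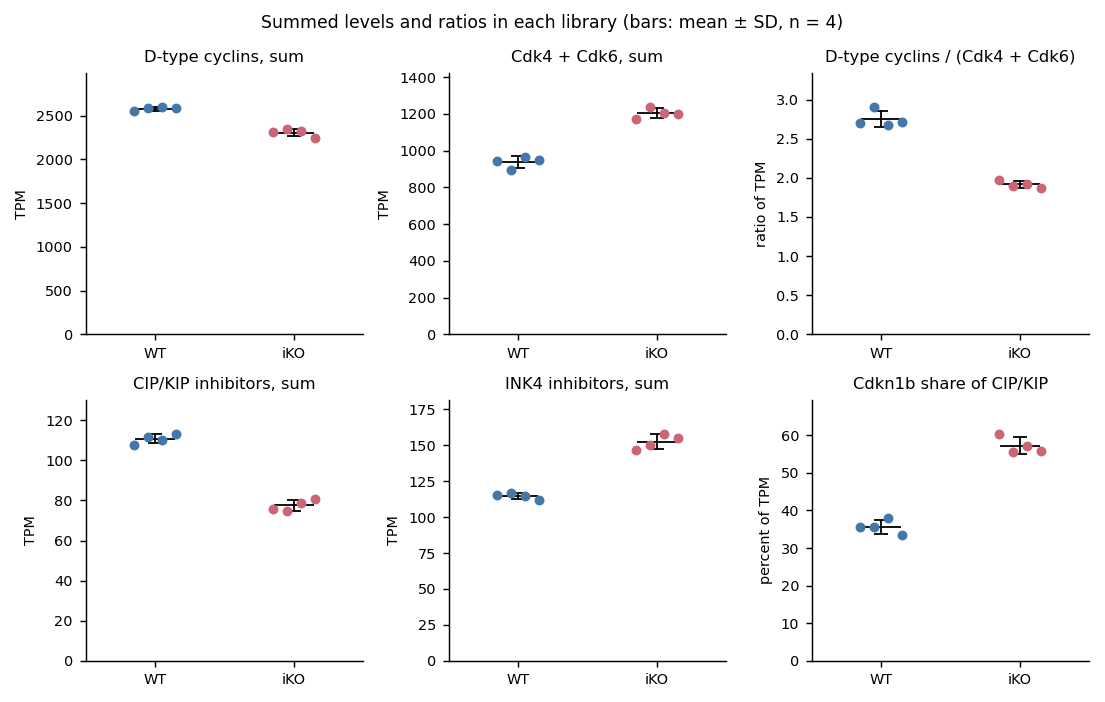
Summed TPM or ratios of TPM (vertical axes, linear, from 0) in each of the 4 WT and 4 iKO libraries, with mean and SD. D-type cyclins and CIP/KIP inhibitors sum to less in every iKO library than in any WT library, and Cdk4 plus Cdk6 and INK4 inhibitors to more.

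Among the genes of the later G1 step, Ccne2 and Cdk2 were lower in iKO and Ccne1 did not pass. Ccne2 (ENSMUSG00000028212.16), an E-type cyclin gene, stood at 31.5, 33.2, 31.9 and 32.1 TPM in iKO and at 38.5, 38.1, 37.5 and 37.9 TPM in WT. Both groups were tight and did not overlap. The mean was 15.4% lower in iKO (32.1 ± 0.715 TPM against 38 ± 0.412 TPM, SD, n = 4), or -0.23 on the log2 scale (SE 0.0311, limma adjusted p = 0.000255). The authors' deposited table gave Ccne2 a log2 fold change of only -0.08, which did not pass (adjusted p = 0.113). Exons of Ints8 on the opposite strand covered 17.4% of the exon bases of Ccne2, and Ints8 had mean TPM of 27.5 (iKO) and 23.1 (WT).

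Ccne1 (ENSMUSG00000002068.16), the other E-type cyclin gene, stood at 27.1, 25.2, 24 and 23 TPM in iKO and at 24, 24.8, 22 and 23.6 TPM in WT. The groups overlapped, with iKO replicate 1 the highest of all 8 libraries. The log2 fold change was 0.07 (95% interval -0.06 to 0.20, adjusted p = 0.344), and the authors' deposited table gave 0.10 (adjusted p = 0.202). Leaving out 1 library moved the fold change of Ccne1 to between 0.03 (without iKO replicate 1) and 0.10 (without iKO replicate 4), and it did not pass in any of these fits. Ccne2 made up 53.8% to 58.2% of E-type cyclin TPM in iKO and 60.6% to 63.0% in WT, without overlap.

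Cdk2 (ENSMUSG00000025358.16), the kinase gene of the E-type cyclins, stood at 62.9, 64.8, 67 and 60.7 TPM in iKO and at 71.5, 67.4, 73.3 and 72.8 TPM in WT. The groups were apart only narrowly, by the gap between iKO replicate 3 and WT replicate 2. The mean was 10.4% lower in iKO (63.9 ± 2.68 TPM against 71.3 ± 2.69 TPM, SD, n = 4), or -0.16 on the log2 scale (SE 0.0403, limma adjusted p = 0.0103). The fall did not pass with trimmed mean factors (-0.09, adjusted p = 0.122), with a length and GC trend removed (-0.08, adjusted p = 0.15) or in the authors' deposited table (-0.06, adjusted p = 0.208).

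The kinase genes stood in a different order in the 2 groups. In WT, Cdk2 was above Cdk6 in level, with no overlap between the 2 genes, and in iKO Cdk6 was above Cdk2, again with no overlap. Cdk4 stood at 16.8 to 18.5 TPM per TPM of Cdk2 in iKO and at 12.2 to 12.6 in WT. From highest to lowest, the mean levels in WT ran Ccnd2, Cdk4, Ccnd3, Ccnd1, Cdk2, Cdk6, Cdkn1b, Ccne2, Ccne1 and Cdkn2c. The only neighbours whose ranges overlapped in WT were Cdkn1b and Ccne2. In iKO the order was the same but for Cdk6 and Cdk2, and no neighbours overlapped.

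Of the inhibitor genes in the set, Cdkn1b was higher in iKO and Cdkn2c did not pass. Cdkn1b (ENSMUSG00000003031.14) stood at 45.9, 41.6, 45 and 45.1 TPM in iKO and at 38.5, 39.8, 41.8 and 37.9 TPM in WT. The groups overlapped only in that iKO replicate 2 lay just under WT replicate 3. The mean was 12.5% higher (44.4 ± 1.92 TPM against 39.5 ± 1.75 TPM, SD, n = 4), or 0.17 on the log2 scale (SE 0.0447, limma adjusted p = 0.0127). The authors' deposited table gave Cdkn1b a log2 fold change of 0.23 (adjusted p = 6.73e-08).

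Cdkn2c (ENSMUSG00000028551.14), the lowest of the 10 genes, stood at 16.3, 16, 16.9 and 16.5 TPM in iKO and at 16.9, 16, 15.6 and 14.1 TPM in WT. The iKO libraries lay within the WT range. Its log2 fold change was 0.07 (95% interval -0.06 to 0.20, adjusted p = 0.351). Leaving out 1 library moved it to between 0.02 (without WT replicate 4, the lowest library) and 0.10 (without WT replicate 1), and it did not pass in any of these fits. The authors' deposited table gave 0.14 for Cdkn2c (adjusted p = 0.291) at a mean normalized signal of 172, the smallest in the set, against 25679 for Ccnd2.

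The genes that passed in both sources, 4 in all and in the same direction, were Ccnd2, Cdk4, Cdk6 and Cdkn1b. Of all genes tested, 42.6% passed in the same direction in both, and 53.9% passed in the authors' deposited table, 27.8% as higher and 26.1% as lower. Ccnd1, Ccne2 and Cdk2 passed in TPM only. With a sex score, the Y-linked genes minus Xist on the log2 scale, as a covariate, limma passed none of the 10 genes (4 at an unadjusted p under 0.05), as against 2.58% of all genes; the score lay between -0.824 and -0.262 for iKO libraries and between 0.565 and 1.01 for WT libraries, so it and the genotype cannot be told apart in these libraries. Under that covariate the fold changes of the 7 genes kept their signs, from -0.39 for Ccnd1 to 0.80 for Cdk6.

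**Figure D3:**
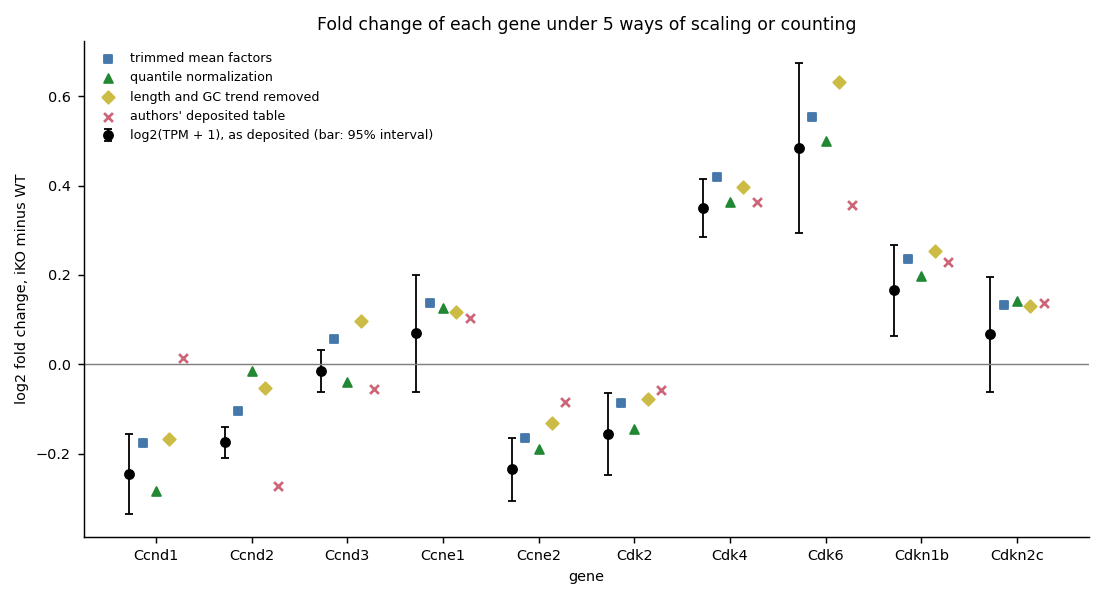
Log2 fold change, iKO minus WT (vertical axis), of each of the 10 genes under 5 ways of scaling or counting, with the 95% interval for log2(TPM + 1). All 5 values are above 0 for Cdk4, Cdk6, Cdkn1b, Ccne1 and Cdkn2c and below 0 for Ccnd2, Ccne2 and Cdk2. Those of Ccnd1 and Ccnd3 lie on both sides, and Ccne1 and Cdkn2c passed in none of the 5.

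Of the 4 other CDK inhibitor genes tested, 2 rose and 1 fell, each with a larger fold change than Cdkn1b. Over all genes tested, 20.7% rose and 31.9% fell. Cdkn1a, which encodes the CIP/KIP inhibitor p21, stood at 25.2, 28.1, 30.1 and 28.6 TPM in iKO and at 63.3, 64.9, 63.8 and 69.5 TPM in WT, far apart (log2 fold change -1.20, SE 0.0562, adjusted p = 4.87e-07). Cdkn2b, which encodes the INK4 inhibitor p15, stood at 16.5, 14.8, 17.4 and 15.6 TPM in iKO and at 7.54, 7.81, 8.87 and 7.17 TPM in WT (0.95, SE 0.0739, adjusted p = 9.7e-06). Cdkn2d, which encodes the INK4 inhibitor p19, was the most abundant inhibitor transcript and stood at 114, 119, 124 and 123 TPM in iKO against 90.7, 93, 89.9 and 90.5 TPM in WT (0.39, SE 0.0311, adjusted p = 1.06e-05). None of these 3 genes overlapped between groups. The authors' deposited table gave them log2 fold changes of -1.19, 1.09 and 0.44.

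Cdkn1c, the gene of the CIP/KIP inhibitor p57, ranged from 3.71 to 7.22 TPM across iKO and from 4.63 to 7.01 TPM across WT libraries and did not pass (adjusted p = 0.426). Cdkn2a, the gene of p16 and p19ARF, was below the filter: it was listed at 0 in all 4 iKO libraries and at no more than 0.188 TPM in WT. The sums of the 2 inhibitor families thus differed in opposite directions, but each sum rested on few genes. Of the CIP/KIP genes only Cdkn1a passed as lower, and Cdkn2d made up a mean of 78.7% of INK4 TPM in iKO and 79.4% in WT. CIP/KIP transcripts summed to between 74.9 and 80.9 TPM in iKO libraries and between 108 and 113 TPM in WT libraries. INK4 transcripts summed to between 147 and 158 TPM in iKO libraries and between 112 and 117 TPM in WT libraries. Cdkn1b was 55.5% to 60.5% of CIP/KIP transcripts in iKO and 33.4% to 37.9% in WT, since Cdkn1a was lower and Cdkn1b higher. Cdkn2c was 10.6% to 11.1% of INK4 transcripts in iKO and 12.6% to 14.7% in WT.

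Downstream of the kinases, none of the 3 RB pocket protein genes passed in limma, and 2 did at an unadjusted p under 0.05. Rb1 ranged from 14.6 to 21.2 TPM across iKO and from 8.03 to 18.1 TPM across WT libraries, the widest range of the 3 genes over all 8 libraries (log2 fold change 0.55, 95% interval 0.03 to 1.06 before adjustment for multiple tests, adjusted p = 0.0703). The authors' deposited table had Rb1 and Rbl1 higher and Rbl2 lower, at 0.44, 0.25 and -0.45. Of 10 E2F and DP genes, 1 rose and 5 fell (median log2 fold change -0.18), and 2 were higher and 5 lower in the authors' deposited table. Over all genes tested, 20.7% were higher and 31.9% lower in limma, and 27.8% and 26.1% in the authors' deposited table. E2f6, a repressor of the family, fell from 9.03 to 6.77 TPM and E2f2, an activator, from 8.48 to 6.38 TPM. The DP partner genes Tfdp1 and Tfdp2 fell by 0.25 and 0.39 on the log2 scale, and E2f4, a factor that acts with pocket proteins, fell by 0.19. E2f7, an atypical repressor of the family, rose from 23.3 to 27.1 TPM, and E2f1, at 4.27 TPM (iKO) against 4.91 TPM (WT), did not pass (adjusted p = 0.105).

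Of 16 S phase genes known to respond to E2F, 2 rose and 4 fell, and the median log2 fold change over the list was -0.03. For this list and those below, the shares over all genes tested were 20.7% higher and 31.9% lower (52.6% in either direction). Tyms, the thymidylate synthase gene, rose by 0.24 on the log2 scale. The polymerase clamp gene Pcna fell by 0.81, Rrm2, of ribonucleotide reductase, fell by 0.21 and the thymidine kinase gene Tk1 fell by 0.20. In the authors' deposited table, 7 of the 16 were higher and 3 lower, against 27.8% and 26.1% of all genes tested. Of 5 S and G2/M cyclin and kinase genes, 1 passed, Ccnb2, which fell from 6.53 to 4.36 TPM, and the authors' deposited table had 1 higher and 1 lower. Of 12 genes for activation and turnover of G1 kinases, 1 rose and 5 fell in limma, whereas 3 were higher and 3 lower in the authors' deposited table. Cdc37, the gene of a chaperone that loads CDK4 and CDK6 onto HSP90, rose from 222 to 272 TPM (adjusted p = 6.56e-05). Skp2 and Skp1 (Skp1a in the deposited tables), subunits of the ubiquitin ligase that marks p27 for destruction, fell by 0.27 (adjusted p = 0.00485) and 0.17 (adjusted p = 0.000205) on the log2 scale. Cdk7, the CDK-activating kinase gene, fell from 25.1 to 21.3 TPM. Of 6 genes for the MuvB core and B-Myb, none rose in limma (1 at an unadjusted p under 0.05 and, in the authors' deposited table, 1) and 2 fell, Lin52 and Mybl2. Of the genes of these lists named here as lower, Tk1, Cdk7 and Lin52 did not pass in the authors' deposited table.

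**Figure D4:**
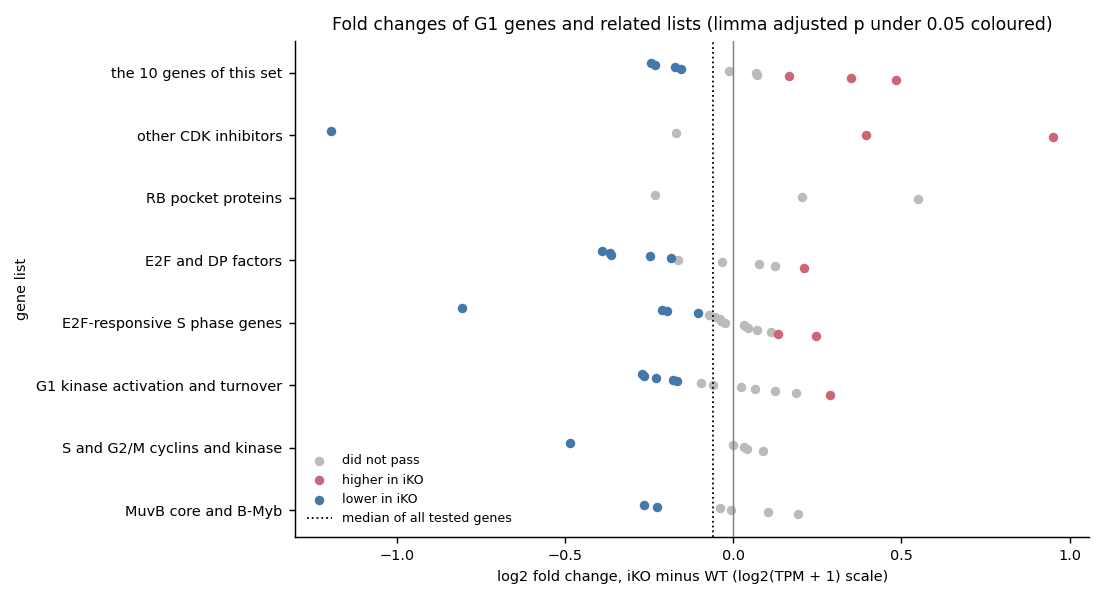
Log2 fold change, iKO minus WT (horizontal axis), of each tested gene in the set of 10 and in 7 related lists (rows), coloured where the limma adjusted p was under 0.05, with the median of all 16413 tested genes as a dotted line. The set itself lies within -0.25 to 0.48, and Cdkn1a and Cdkn2b among the other inhibitors lie furthest from 0.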

How the data were processed

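RNA of 4 iKO and 4 WT libraries was amplified by Smart-Seq2 and read as paired ends on a HiSeq instrument, per the labels' protocols. The authors deposited TPM for each library, and every column summed to 1000000; all 8 columns matched a sample by name. They also deposited their own comparison, with headings that DESeq2 writes, per the file headers: the mean normalized signal, the log2 fold change and standard error, the test score, and p-values before and after adjustment. The sources used here do not name an aligner, a quantifier or a build, and depth is unknown.

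Genes with at least 1 TPM in at least 4 libraries (16413) entered a two-sided limma test (version 3.58.1, R 4.3.3) of iKO minus WT on log2(TPM + 1), with trend and robust moderation. This scale understates the change of low genes. All 10 members entered, the lowest value being 14.1 TPM. The test was checked on simulated data, where log2 changes of 0.25 passed in 32.0% of genes and those of 0.5 in 62.0%. In such simulated data, changes of the size seen here can thus be missed. In that simulation 16213 of 16413 genes were left unchanged, unlike in the comparison here, and 0.0617% of them passed. The changed genes were drawn from all levels. How often such changes are missed among the 10 members therefore cannot be read from it. Sums, shares and ratios are descriptions with no test. Exon overlaps and near-identical copies (blastn 2.17.0, 95% identity over 50% of the shorter transcript) came from GENCODE M21 (GRCm38), which held 98.4% of the versioned gene IDs; Ccnd2 and Cdk6 had copies of at most 429 nt, all listed at 0. Figures used matplotlib 3.10.9.

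The members and lists were chosen with earlier results of these data known. All 10 members are named; of each related list, up to 4 genes with the smallest p could be named, and any inhibitor, pocket protein or E2F gene. The fit was repeated with replicate number as a block, without each library in turn, with a pseudocount of 0.1 or 5, without the filter or with one on mean TPM (at least 5), after scaling by unweighted trimmed mean of M values factors or quantile normalization, with limma's array weights, and with a sex score as covariate, and was set beside the authors' deposited table; loess residuals on transcript length and GC content (span 0.3) were added after seeing the data.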

Additional observations from a re-analysis of the deposited data

Results flagged for a closer look

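In 44 groups of 4 libraries checked, 4 held a library whose gap to its nearest neighbour was over 0.829 of the group's range; chance alone does so in about 1 of 20. Ccnd1 in iKO replicate 2 stood at 117 TPM, against 110.4 to 111 TPM in the other iKO libraries. Ccnd1 in WT replicate 3 stood at 124 TPM, against 136 to 137 TPM in the other WT libraries; both strays lie toward the other group. Cdk6 in iKO replicate 3 stood at 80.4 TPM, against 71.6 to 72.7 TPM. The sum of D-type cyclins over that of Cdk4 and Cdk6 was 2.9 in WT replicate 2, against 2.68 to 2.71 in the other WT libraries.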

How the results depend on the processing

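The count of 7 genes that passed of 10 stayed at 7 when any 1 library was left out (lowest and highest 7, with 7942 to 8216 of all genes passing), and it was 7 with the replicate number as a block, where 8097 of all genes passed. Same-numbered libraries did not deviate together (correlations -0.044 to 0.001). This check, made over all genes tested at once, showed no sign of pairing by number but cannot exclude it. The count was 6 under quantile normalization, where Ccnd2 did not pass, 4 in the authors' deposited table, and 0 with the sex score as covariate, where 423 of all genes passed; under that covariate Ccne1 turned to -0.11 and Cdkn2c to -0.14, neither passing before or after. Ccnd1 went from -0.25 to 0.0131 in the authors' deposited table, where it did not pass in either direction. Ccnd3 turned from -0.01 to 0.0561 with trimmed mean factors and to 0.0971 with a length and GC trend removed. The cause of these differences was not tested. Of the 19 alternatives, Cdk4, Cdk6 and Cdkn1b each passed as higher in 18, Ccnd1, Ccnd2 and Ccne2 as lower in 17 and Cdk2 as lower in 15. All but the authors' deposited table refit the same TPM values, so the 19 are not independent checks. Without 1 library, the difference in share of D-type cyclin TPM, iKO minus WT, ran from -0.44 to -0.229 percentage points for Ccnd1, from -0.815 to -0.62 for Ccnd2 and from 0.938 to 1.08 for Ccnd3. Depth limits none of these values in a way the files can show, since TPM holds no counts.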
